A study of Mus musculus with 4 samples.

Results

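Genes of cholesterol and fatty acid synthesis were followed in leukaemic mouse marrow cells given 4OHT. The list was drawn up by pathway membership, with earlier results of these data known. It names 32 genes, of which 31 were found by their symbol among the 23240 rows of the deposited table. Hmgcs1 was not analysed here. The 31 genes are 17 enzymes of sterol synthesis, 6 genes of sterol regulation and transport (Insig1, Insig2, Srebf1, Srebf2, Scap and Stard4), 6 enzymes of fatty acid synthesis (Acly, Acaca, Fasn, Scd1, Scd2 and Elovl6) and the cholesterol efflux transporters Abca1 and Abcg1. The sterol genes, the fatty acid genes and the efflux genes were kept apart as classes, beside some counts pooled over all members.

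Cells make cholesterol from acetyl-CoA through mevalonate, farnesyl diphosphate, squalene and lanosterol. The transcription factors encoded by Srebf1 and Srebf2 (SREBPs) drive these enzymes and those of fatty acid synthesis; when membrane sterol is low, SCAP escorts them out of the endoplasmic reticulum, where INSIG proteins otherwise hold them. Sterol excess also acts through the oxysterol receptors LXR alpha and LXR beta, which switch on ABCA1 and ABCG1 to export cholesterol. Dividing blood progenitors need both sterols and fatty acids for new membrane.

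RNA came from sorted bone marrow cells of leukaemic mice, selected for GFP and BFP and against CD11b and Gr1; the labels call the cell type RUNX1-FLT3ITD AML, an acute myeloid leukaemia. All cells were cultured for 22 h in serum-free medium with FLT3L, SCF, IL3 and IL11. The 4OHT group received 200 nM 4OHT (4-hydroxytamoxifen) and the EtOH group the same volume of ethanol, its solvent. Each group held 2 libraries, replicate 1 from B6 Runx1 delta/delta cells and replicate 2 from B6 Runx1 delta/+ cells. The RUNX1-FLT3ITD label is carried by every library, so whatever it stands for is shared by both groups and both genotypes. The sources used here give no age, no number of animals, no vector or promoter, and no protein that 4OHT switches. Tamoxifen and its metabolites are known to bind the sterol isomerase EBP. The labels mark no 4OHT library as lacking a switched protein. An action of the compound itself and an action through such a protein, if there is one, therefore cannot be told apart.

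Library totals, recovered from the spacing of the RPKM values, ran from 33.7 M to 39.4 M mapped reads. RPKM is a read count divided by gene length in kilobases and by mapped reads in M. Globin genes took 0.917% and 0.662% of summed RPKM in the 4OHT libraries of Runx1 delta/delta and delta/+, against 12.3% and 7.66% in the EtOH libraries, and their reads are part of the total that RPKM divides by. The 9 erythroid markers in the table summed to 2668 and 1312 RPKM in the 4OHT libraries, against 16666 and 5869 RPKM in the EtOH libraries; 8 of them were lower with 4OHT and none was at 0. The part of this loss of red cell transcripts in the lipid gene results was not tested, and in bulk RNA fewer cells of a type and less RNA per cell cannot be told apart. Itgam, which encodes CD11b, stayed between 0.168 and 0.358 RPKM. All 8 adipocyte and stromal markers and 7 of 9 macrophage markers were under 1 RPKM in every library, with Marco and Cx3cr1 at 0. The macrophage markers summed to 6.93 and 5.70 RPKM in 4OHT, against 4.04 and 4.60 RPKM in EtOH, and the 7 neutrophil markers to 45.8 and 18.2 RPKM, against 42.1 and 17.1 RPKM. Of 8 progenitor markers, Kit reached 1.61 and 0.740 RPKM in 4OHT, against 0.0781 and 0.0973 RPKM in EtOH, and Cd34 was under 1 RPKM throughout. Flt3 had 16.8 and 39.7 RPKM, against 12.6 and 46.3 RPKM. Progenitor markers summed to 266 and 197 RPKM in 4OHT and to 211 and 271 RPKM in EtOH, and of the 4 tested 2 rose and 0 fell (2 and 1 with median-ratio scaling). Myb and Ptprc were the 2 that rose. Myb had 99.2 and 84.5 RPKM in 4OHT, against 17.0 and 37.5 RPKM in EtOH. Its log2 change was 1.82 (limma adjusted p = 0.0130, or 0.00302 with median-ratio scaling). Gata2, the one lower after rescaling, had 145 and 63.5 RPKM in 4OHT, against 180.0 and 182 RPKM in EtOH. It made up most of each sum except that of the delta/+ 4OHT library, where Myb was higher. The fitted change of Gata2 was -0.91 (limma adjusted p = 0.0619, or 0.00917 with median-ratio scaling).

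The comparison of 4OHT with EtOH asks what changed within 22 h of the compound. Averaged over the libraries, 30 genes reached 1 RPKM and were tested, and 12 of them rose with 4OHT and 0 fell (limma, Benjamini-Hochberg adjusted p under 0.05 over 9595 genes, genotype as a term; 18 and 1 at an unadjusted p under 0.05). Across all 9595 genes, 22.2% rose and 10.2% fell at that adjusted threshold. For this and every later count of members at an unadjusted p, the share of all genes was not counted. The risers were 6 sterol enzymes (Acat2, Sqle, Lss, Nsdhl, Sc5d and Dhcr7), Insig1, and 5 of the 6 fatty acid enzymes (Acly, Acaca, Fasn, Scd1 and Elovl6). Abca1 was under the expression limit and had no call in that fit.

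The median fitted change, on the log2(RPKM + 1) scale used for every log2 value here, was 0.81 for the fatty acid enzymes, 0.45 for the sterol enzymes and 0.17 for the regulators and Stard4, against 0.16 for all genes tested. Both 4OHT libraries lay above both EtOH libraries in 15 of the 30 genes, against 38.4% of all genes. The calls depend on scaling and on the genotype term. Median-ratio scaling moves the median change of all genes to -0.04. With it 8 of the 30 rose, all among the 12, and 1 fell (Idi1), against 15.3% and 17.4% of all genes. The 8 were Lss, Sc5d, Dhcr7, Insig1, Acaca, Fasn, Scd1 and Elovl6. By class, 3 of 17 sterol enzymes rose and 1 fell. Of the 6 regulators and transport genes 1 rose, and of the 6 fatty acid enzymes 4 rose. Without the genotype term 0 of the 30 passed in limma (8 at an unadjusted p under 0.05). Of all 9595 genes, 117 rose and 116 fell in that fit.

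**Figure D1:**
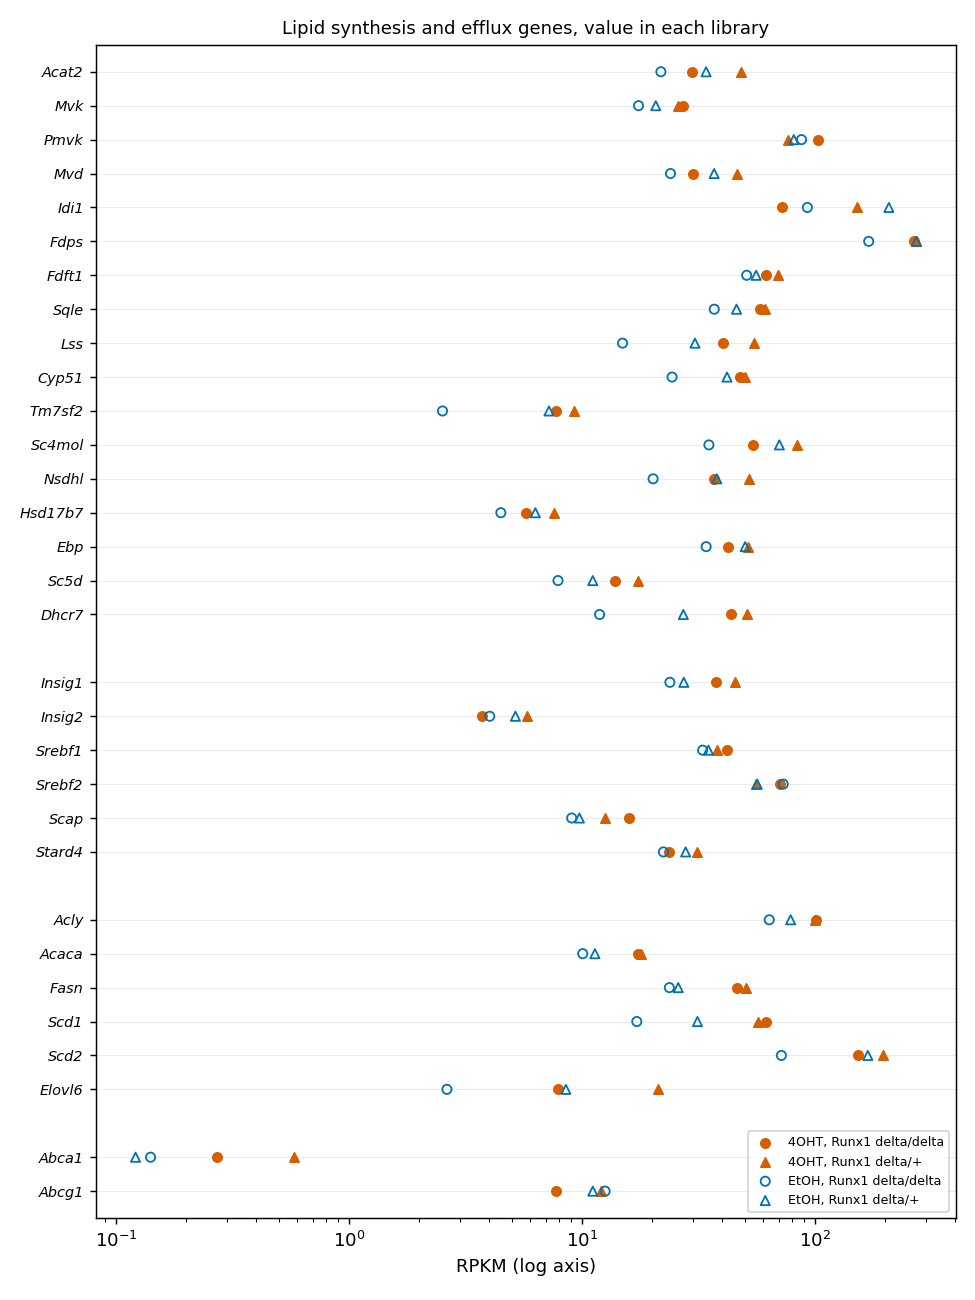
RPKM of the 31 genes in each library on a log axis, in pathway order, with 4OHT filled, EtOH open, circles for Runx1 delta/delta and triangles for Runx1 delta/+. The EtOH library of Runx1 delta/delta is the lowest for 25 of the 30 genes tested, and levels run from 0.121 RPKM (Abca1) to 273 RPKM (Fdps).

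The 6 enzymes that lead to farnesyl diphosphate had a median fitted change of 0.32, and 1 of them passed. Acat2, the cytosolic thiolase that joins acetyl-CoA units, had 29.8 RPKM in the delta/delta and 48.3 RPKM in the delta/+ 4OHT library, against 21.8 and 34.1 RPKM in the EtOH libraries. It rose by 0.46 on the log2 scale (SE 0.13, limma adjusted p = 0.0499), at the edge of the threshold, and did not pass after median-ratio scaling (limma adjusted p = 0.225; range over all alternatives 0.0518 to 0.903). The kinase genes Mvk and Pmvk and the decarboxylase gene Mvd, which turn mevalonate into isopentenyl diphosphate, had no call, with fitted changes of 0.45, 0.08 and 0.31.

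Idi1, the isomerase that makes dimethylallyl diphosphate, was the only sterol enzyme with a negative fitted change as deposited; with median-ratio scaling Pmvk (-0.14) and Ebp (-0.04) were negative too. Its RPKM was 72.3 in the delta/delta and 152 in the delta/+ 4OHT library, against 92.8 and 208 in EtOH. The change of -0.40 did not pass as deposited (SE 0.12, limma adjusted p = 0.0599) and became a fall of -0.62 with median-ratio scaling (adjusted p = 0.00902). Within each genotype the log2 ratio of Idi1 was negative, -0.36 in delta/delta and -0.45 in delta/+. Its fitted change turned to 0.13 without 4OHT replicate 1 and to 0.18 without EtOH replicate 2. Those fits have no genotype term and leave the genotypes unbalanced between the groups, so its genotype difference of -1.11 enters them. Fdps, which makes farnesyl diphosphate and was the most abundant of the 31 genes, had 266 and 272 RPKM in 4OHT, against 170 and 273 RPKM in EtOH. Only the delta/delta EtOH library stood apart there, and Fdps had no call (log2 change 0.32, SE 0.18, limma adjusted p = 0.230).

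At squalene and lanosterol, 2 of 3 enzymes passed and the median fitted change was 0.52. Lss, lanosterol synthase, had 40.1 RPKM in delta/delta and 54.6 RPKM in delta/+ cells given 4OHT, against 14.9 and 30.6 RPKM in EtOH; the groups did not overlap. It rose by 1.09 (SE 0.18, limma adjusted p = 0.0113; 0.00573 with median-ratio scaling). Sqle, the squalene epoxidase that is a control point of the pathway, had 57.9 and 61.1 RPKM in 4OHT, against 37.0 and 46.1 RPKM in EtOH. Its rise of 0.52 (SE 0.14, limma adjusted p = 0.0422) did not hold after median-ratio scaling (limma adjusted p = 0.143). Fdft1, squalene synthase, had no call (log2 change 0.28); its annotated exons overlap those of Ctsb on the opposite strand by up to 774 bases, and reads of the pair cannot be told apart unless counting used strand. Ctsb had 38.6 and 32.5 RPKM in 4OHT, against 92.3 and 48.3 RPKM in EtOH. Cyp51 and Srebf1 have shorter overlaps of this kind, of 166 bases with Akap9 and 109 bases with Rai1.

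All 8 enzymes between lanosterol and cholesterol had a positive fitted change as deposited, with a class median of 0.61, and 3 of them passed; Ebp turned negative with median-ratio scaling. Dhcr7, the reductase that completes cholesterol, had 43.4 RPKM in the delta/delta and 51.2 RPKM in the delta/+ 4OHT library, against 11.9 and 27.2 RPKM in EtOH. Both 4OHT libraries were above both EtOH libraries, and the change of 1.33 (SE 0.24, limma adjusted p = 0.0135; 0.00500 with median-ratio scaling) ranked 340 of 9595. Sc5d, the sterol desaturase one step earlier, had 13.9 and 17.5 RPKM in 4OHT, against 7.89 and 11.1 RPKM in EtOH, and rose by 0.67 (SE 0.14, limma adjusted p = 0.0197; 0.0476 with median-ratio scaling).

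Nsdhl, a dehydrogenase that helps strip methyl groups from the sterol ring, had 36.8 and 52.0 RPKM in 4OHT, against 20.2 and 37.9 RPKM in EtOH, so one 4OHT library fell below one EtOH library. It rose by 0.64 (SE 0.16, limma adjusted p = 0.0322), and did not pass after median-ratio scaling (limma adjusted p = 0.0676). The other enzymes of this stretch did not pass. The demethylase gene Cyp51 had a fitted change of 0.59, the methyl sterol oxidase gene Sc4mol (Msmo1 in current naming) 0.43, the sterol reductase gene Tm7sf2 0.81 and the ketosteroid reductase gene Hsd17b7 0.26. Ebp, the sterol isomerase that binds tamoxifen, had 42.4 and 51.7 RPKM in 4OHT, against 34.1 and 50.2 RPKM in EtOH (log2 change 0.17, SE 0.14, limma adjusted p = 0.388).

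Among the regulators, Insig1 passed. INSIG1 is both a brake on SREBP release and a product of an SREBP target gene. It had 37.8 RPKM in delta/delta and 45.6 RPKM in delta/+ cells given 4OHT, against 23.8 and 27.4 RPKM in EtOH, with no overlap, and rose by 0.68 (SE 0.13, limma adjusted p = 0.0175; 0.0404 with median-ratio scaling). Its relative Insig2, which is not under the same sterol feedback, had 3.73 and 5.81 RPKM in 4OHT, against 4.02 and 5.18 RPKM in EtOH, without a call (log2 change 0.03, SE 0.16, limma adjusted p = 0.907).

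Transcripts of the SREBPs themselves did not pass. Srebf2, the factor centred on sterol genes, had 70.6 and 56.0 RPKM in 4OHT, against 73.1 and 56.5 RPKM in EtOH (log2 change -0.03, SE 0.13, limma adjusted p = 0.871). Srebf1, whose SREBP-1c form favours fatty acid genes, had 41.9 and 37.9 RPKM, against 33.0 and 34.9 RPKM (log2 change 0.23, SE 0.14, limma adjusted p = 0.265); 1 value per gene does not separate its isoforms. Scap, the escort, came near the threshold with 15.9 and 12.6 RPKM in 4OHT, against 9.04 and 9.75 RPKM in EtOH (log2 change 0.55, SE 0.16, limma adjusted p = 0.0535; 0.149 with median-ratio scaling). Stard4, a sterol carrier of the cytosol, had a fitted change of 0.12 without a call.

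Of the 6 fatty acid enzymes 5 rose, and each of the 6 had a positive fitted change under both scalings. Elovl6, the elongase that extends palmitate, had 7.86 RPKM in the delta/delta and 21.2 RPKM in the delta/+ 4OHT library, against 2.63 and 8.53 RPKM in EtOH. The delta/delta 4OHT library was below the delta/+ EtOH library, but within each genotype the ratio was alike, 2.99-fold in delta/delta and 2.49-fold in delta/+, and Elovl6 rose by 1.25 (SE 0.14, limma adjusted p = 0.00532; 0.00189 with median-ratio scaling). Scd1, a desaturase that makes oleate from stearate, had 61.6 and 57.0 RPKM in 4OHT, against 17.2 and 31.3 RPKM in EtOH. It rose by 1.31 (SE 0.24, limma adjusted p = 0.0151; 0.00591 with median-ratio scaling), with no overlap of the groups.

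Fasn, fatty acid synthase, responded evenly, with 46.5 and 50.8 RPKM in 4OHT, against 23.7 and 25.9 RPKM in EtOH, or 1.96-fold in both genotypes. It rose by 0.94 (SE 0.13, limma adjusted p = 0.00787; 0.00635 with median-ratio scaling). Acaca, the carboxylase that makes malonyl-CoA for it, had 17.4 and 18.0 RPKM, against 10.1 and 11.4 RPKM, and rose by 0.68 (SE 0.14, limma adjusted p = 0.0191; 0.0459 with median-ratio scaling). Acly, which splits citrate to cytosolic acetyl-CoA for both pathways, had 101 and 99.6 RPKM in 4OHT, against 63.7 and 78.6 RPKM in EtOH. Its rise of 0.50 (SE 0.14, limma adjusted p = 0.0499) was at the edge and did not hold after median-ratio scaling (limma adjusted p = 0.168; range over all alternatives 0.0520 to 0.650).

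Scd2, the more abundant desaturase in all 4 libraries, had 154 and 195 RPKM in 4OHT, against 71.8 and 169 RPKM in EtOH, and did not pass (log2 change 0.65, SE 0.23, limma adjusted p = 0.0785). Scd1 and Scd2 are close relatives, so reads could have been split between them in counting. Of the efflux genes, Abcg1 had 7.77 RPKM in the delta/delta and 12.0 RPKM in the delta/+ 4OHT library, against 12.6 and 11.1 RPKM in EtOH (log2 change -0.26, SE 0.21, limma adjusted p = 0.371). Abca1 had 0.271 and 0.579 RPKM in 4OHT, or 102 and 234 reads, against 0.141 and 0.121 RPKM in EtOH, or 50 and 42 reads. Both of its 4OHT values were above both EtOH values, at levels under 1 RPKM, and a fit with no expression filter gave it no call (log2 change 0.32, SE 0.09, limma adjusted p = 0.0932).

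**Figure D2:**
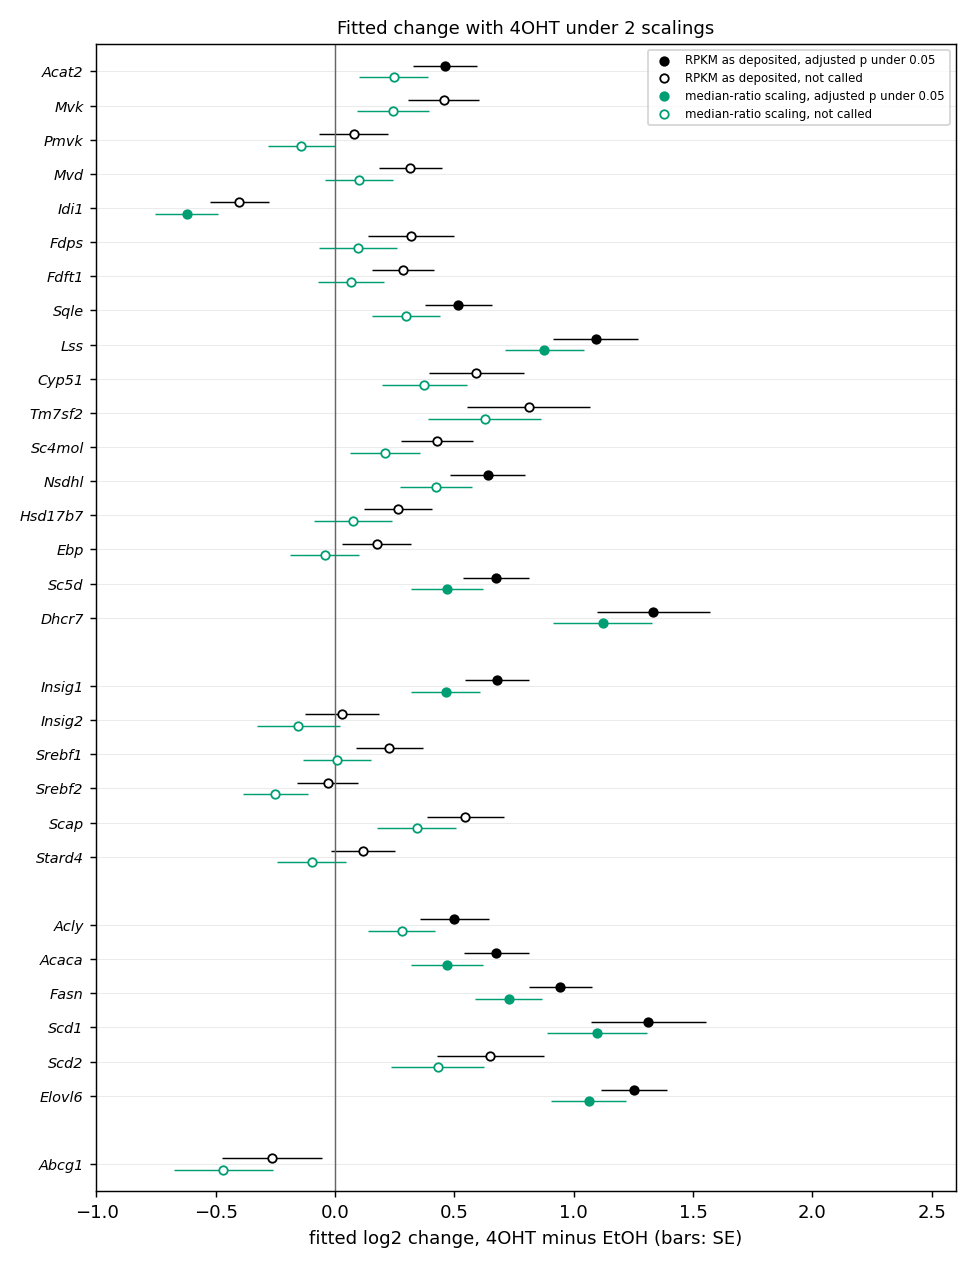
Fitted log2 change of 4OHT minus EtOH for the 30 genes tested, with bars for the SE, from RPKM as deposited (black) and after median-ratio scaling (green); filled points have an adjusted p under 0.05. The 8 genes called under both scalings are Lss, Sc5d, Dhcr7, Insig1, Acaca, Fasn, Scd1 and Elovl6, and Idi1 is called lower in the rescaled fit.

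Promoters are shown for a few of these genes so that risers can be read beside a gene that did not rise. RefSeq promoters (GRCm38.p6, 250 bases before to 50 after a start) were matched for 24 of the 31 genes, all but Sqle, Scd1, Scd2, Fdft1, Fdps, Abcg1 and Stard4. The 150 bases before the start are printed for 4 genes that rose (Dhcr7, at the most downstream of its 3 listed starts, Lss, Sc5d and Fasn), for Elovl6, which rose and has no such box, and for Idi1, which did not rise. The other 2 starts of Dhcr7 have no NF-Y box in the 150 bases before them, so the start shown is the one that has any. Capitals mark the NF-Y box, CCAAT on either strand (ATTGG when read from the other).

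Dhcr7 (chr7:143830064-143830213, plus strand): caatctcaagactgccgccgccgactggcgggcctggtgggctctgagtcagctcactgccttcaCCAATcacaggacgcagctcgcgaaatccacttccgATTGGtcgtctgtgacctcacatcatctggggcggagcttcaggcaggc

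Lss (chr10:76531455-76531604, plus strand): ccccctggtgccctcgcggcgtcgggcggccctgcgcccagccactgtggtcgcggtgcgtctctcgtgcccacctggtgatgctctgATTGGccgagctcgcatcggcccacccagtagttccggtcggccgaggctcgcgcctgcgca

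Sc5d (chr9:42264301-42264450, minus strand): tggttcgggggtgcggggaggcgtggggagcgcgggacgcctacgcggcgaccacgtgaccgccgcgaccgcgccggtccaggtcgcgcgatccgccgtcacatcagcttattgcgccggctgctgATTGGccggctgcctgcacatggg

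Fasn (chr11:120824548-120824697, minus strand): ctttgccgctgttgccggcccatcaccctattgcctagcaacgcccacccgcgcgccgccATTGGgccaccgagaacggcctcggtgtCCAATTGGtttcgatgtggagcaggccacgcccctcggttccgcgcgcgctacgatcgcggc

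Elovl6 (chr3:129532236-129532385, plus strand): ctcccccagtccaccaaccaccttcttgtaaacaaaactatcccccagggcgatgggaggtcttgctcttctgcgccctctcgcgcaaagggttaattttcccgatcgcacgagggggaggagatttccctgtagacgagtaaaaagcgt

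Idi1 (chr13:8885456-8885605, plus strand): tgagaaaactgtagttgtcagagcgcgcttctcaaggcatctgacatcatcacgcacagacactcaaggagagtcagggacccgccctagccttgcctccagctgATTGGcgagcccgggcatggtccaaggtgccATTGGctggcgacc

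NF-Y is a factor that works beside SREBPs at many sterol gene promoters. CCAAT, searched on both strands, was found in 19 of the 24 genes (79.2%), against 44.1% of 7787 tested genes with a promoter and 41.1% of all 27025 genes. It was in 7 of the 10 risers with a promoter and in 12 of the 14 other genes. In Fasn 2 of the 3 matches overlap, since CCAATTGG reads the same on both strands. The Sp1 box GGGCGG was in 20 of 24 (83.3%), against 71.4% of tested genes. The RUNX motif TGTGGT was in 3 of 24 (12.5%), namely Lss, Acly and Acaca, against 14.6% of tested genes; these 3 were named after their values were seen. The SREBP motif TCACNCCAC was in 0 of 24, against 1.30% of tested genes, which says that these letters were not in these windows.

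The response differed in size between the genotypes, which could be described but not tested, since 1 pair per genotype leaves 0 residual degrees of freedom. The log2 ratio of 4OHT to EtOH was larger in Runx1 delta/delta than in delta/+ for 21 of 30 genes (70.0%), against 54.4% of all genes. It was so for 14 of 17 sterol enzymes and for all 8 between lanosterol and cholesterol, with medians of 0.61 in delta/delta and 0.30 in delta/+ over the 17. Dhcr7 was 3.65-fold higher with 4OHT in delta/delta and 1.88-fold in delta/+, Scd1 3.58-fold and 1.82-fold, Lss 2.69-fold and 1.79-fold, and Scd2 2.14-fold and 1.16-fold. Among the 6 regulators and transport genes only 2, Srebf1 and Scap, had the larger ratio in delta/delta (33.3%); Insig1, for one, was at 1.58-fold in delta/delta and 1.67-fold in delta/+.

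**Figure D3:**
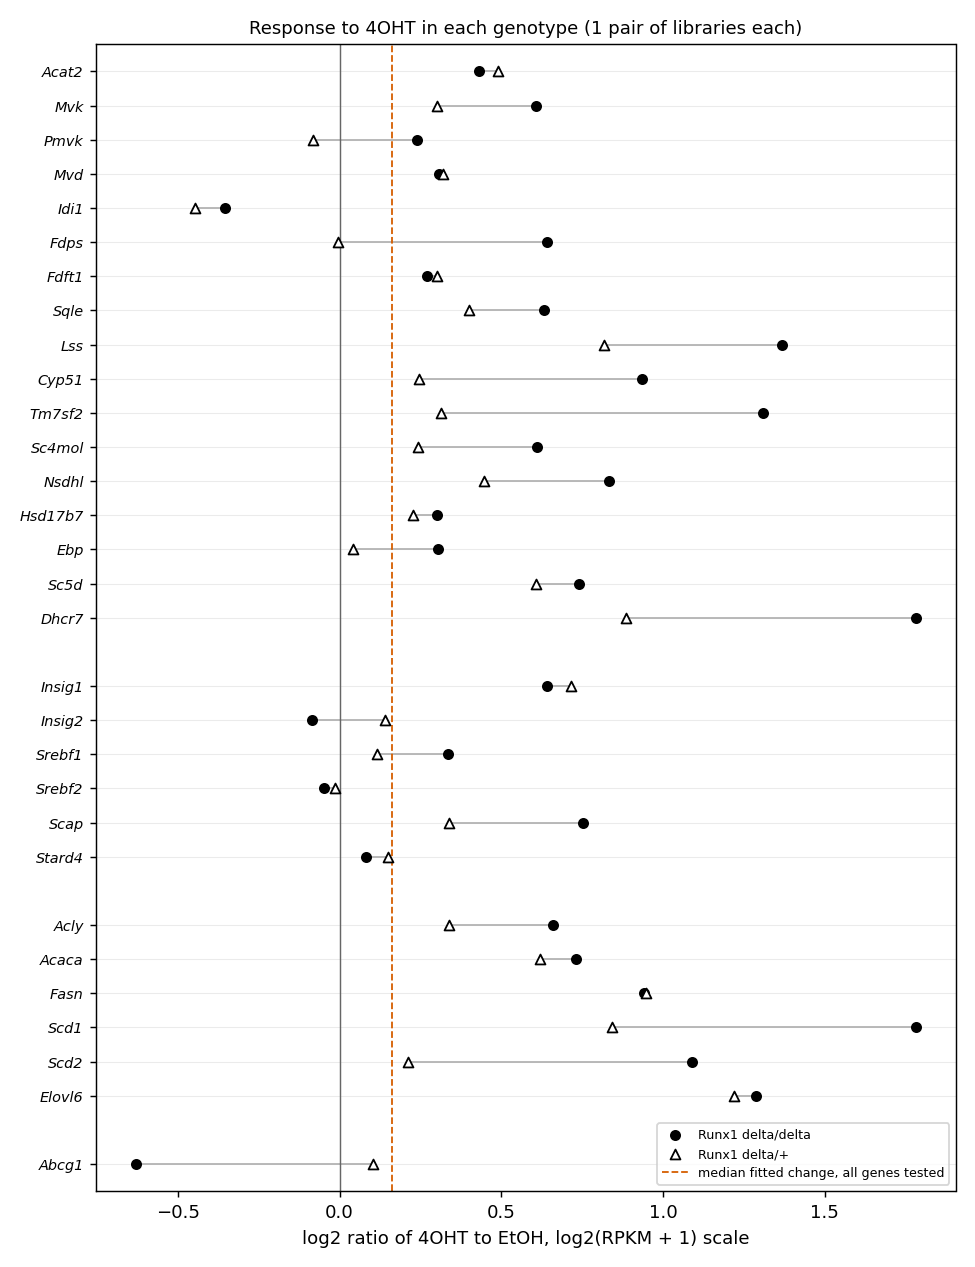
Log2 ratio of 4OHT to EtOH within each genotype for the 30 genes tested, filled circles for Runx1 delta/delta and open triangles for Runx1 delta/+, 1 pair of libraries each; the dashed line is the median fitted change of all genes, 0.16. The widest gaps are those of Tm7sf2, Scd1, Dhcr7 and Scd2, and Pmvk, Fdps, Insig2 and Abcg1 lie on opposite sides of 0.

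This gap came with low values in 1 library. The EtOH library of Runx1 delta/delta was the lowest of the 4 for 25 of 30 genes (83.3%), against 39.5% of all genes, and it is also the library with the largest globin share. The 17 sterol enzymes summed to 940 and 1128 RPKM in the delta/delta and delta/+ 4OHT libraries, against 657 and 1038 RPKM in EtOH. The 6 fatty acid enzymes summed to 388 and 442 RPKM, against 189 and 324 RPKM. Median-ratio scaling left a median ratio of 0.36 in delta/delta and 0.12 in delta/+ for the sterol enzymes, and of 0.76 and 0.55 for the fatty acid enzymes. Without that EtOH library, and without the genotype term, the median change was 0.20 for the sterol enzymes and 0.58 for the fatty acid enzymes. The median of all genes tested in that fit was 0.14. That fit set 4OHT libraries of both genotypes against the delta/+ EtOH library alone, so the difference between genotypes entered its changes. Within delta/+ as deposited, the median log2 ratio was 0.30 for the sterol enzymes, 0.73 for the fatty acid enzymes and 0.15 for all genes tested.

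Runx1 delta/delta cells were then set against delta/+ cells with treatment as a term; genotype, replicate number and source animal cannot be told apart. Of the 30 genes, 5 were lower in delta/delta and 0 higher in limma at an adjusted p under 0.05, against 6.91% and 4.68% of all 9595 genes. At an unadjusted p under 0.05 the members split into 15 and 1, and the share of all genes at that threshold was not counted. With median-ratio scaling all genes split into 827 lower and 1001 higher by adjusted p, against 663 and 449 as deposited. The 5 were Acat2, Mvd, Idi1, Sc4mol and Elovl6. Idi1 stood at 72.3 and 92.8 RPKM in the 4OHT and EtOH libraries of delta/delta, against 152 and 208 RPKM in delta/+, a difference of -1.11 (SE 0.12, limma adjusted p = 0.0176). Elovl6 stood at 7.86 and 2.63 RPKM in delta/delta, against 21.2 and 8.53 RPKM in delta/+, a difference of -1.36 (SE 0.14, limma adjusted p = 0.0148). The differences of Acat2, Mvd and Sc4mol were -0.65, -0.61 and -0.80 (limma adjusted p = 0.0418, 0.0468 and 0.0363). With no expression filter 0 of all genes passed in limma, and 12 of the members were lower at an unadjusted p under 0.05. Without the treatment term 0 passed as well, with 1 member lower at an unadjusted p under 0.05. With 1 library left out both terms leave 0 residual degrees of freedom, so those fits dropped the treatment term too; 0 genes passed, and 1 to 10 members were lower at an unadjusted p under 0.05.

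**Figure D4:**
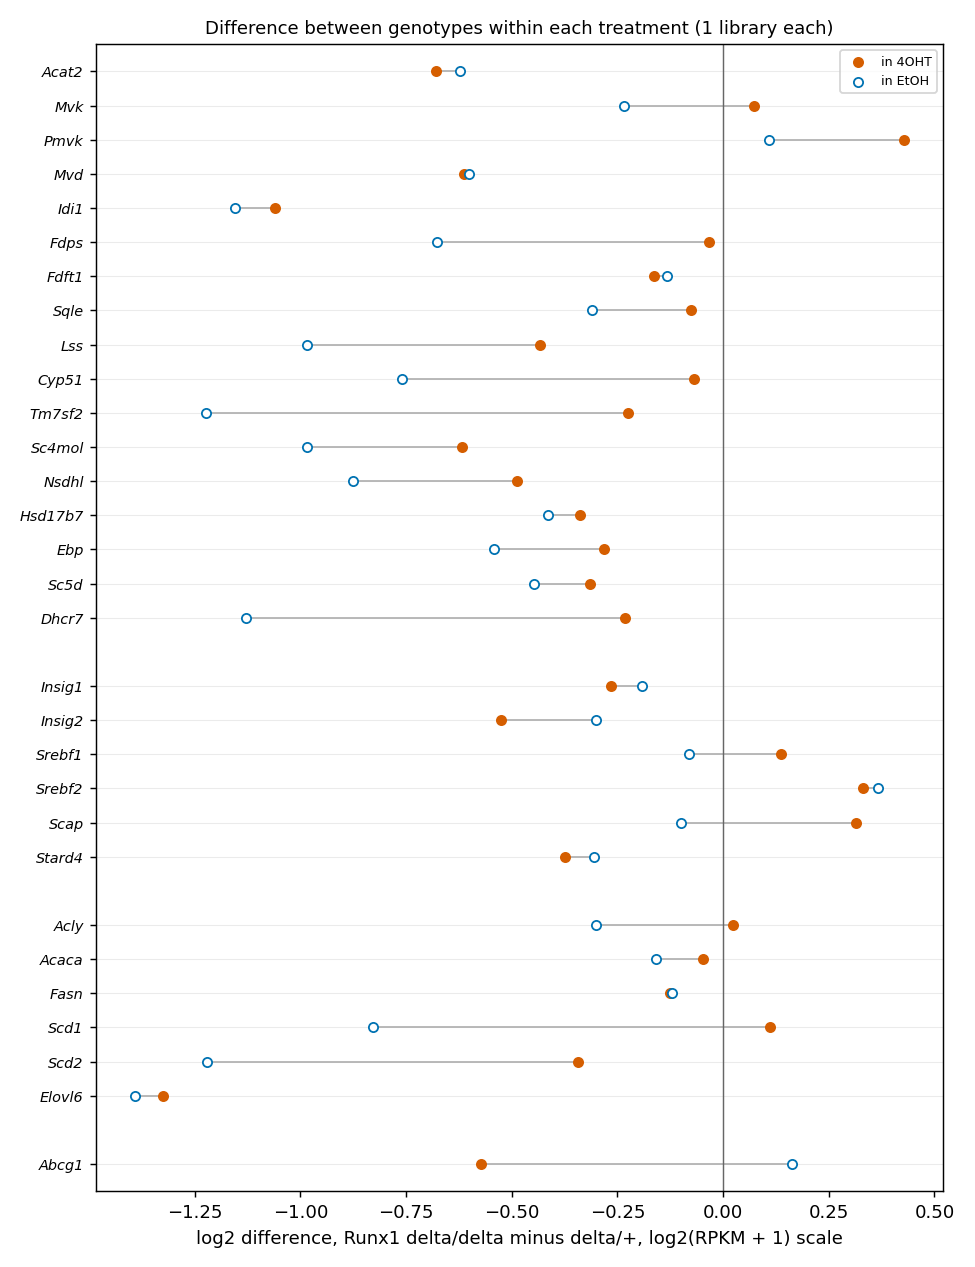
Log2 difference of Runx1 delta/delta minus delta/+ within 4OHT (filled) and within EtOH (open) for the 30 genes tested, 1 library each. For the sterol enzymes the median is -0.28 in 4OHT and -0.62 in EtOH; Idi1, Elovl6, Acat2 and Mvd keep about the same difference in both.

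The rest of these pathways was counted from lists drawn up by function, also with earlier results of these data known. Of 22 further fatty acid genes tested, 9 rose with 4OHT and 0 fell (5 and 1 with median-ratio scaling), with a median fitted change of 0.54. All genes tested rose in 22.2% and fell in 10.2% (15.3% and 17.4% with median-ratio scaling), and every list here is to be set against those shares. Fads2, a desaturase of polyunsaturated fatty acids, had 249 and 217 RPKM in 4OHT, against 76.1 and 101 RPKM in EtOH (log2 change 1.40, SE 0.18, limma adjusted p = 0.00651). Elovl5, an elongase of the same chains, had 12.0 and 18.7 RPKM, against 2.17 and 6.69 RPKM (log2 change 1.70, limma adjusted p = 0.00602). Aacs, which makes acetoacetyl-CoA for lipid synthesis, and Fads1 rose by 1.05 and 0.88.

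Of 17 further genes of sterol synthesis, storage and uptake, 2 rose and 1 fell, under both scalings, and the median change was 0.28. Both counts are below the shares of all genes, 22.2% and 10.2%. Por, the reductase that passes electrons to CYP51 and squalene epoxidase, had 89.2 and 76.7 RPKM in 4OHT, against 18.9 and 32.1 RPKM in EtOH (log2 change 1.71, SE 0.24, limma adjusted p = 0.00812). Tmem97, an endoplasmic reticulum protein of sterol traffic, rose by 1.17 (limma adjusted p = 0.0140). Soat2, which esterifies cholesterol for storage, had 3.79 and 2.88 RPKM, against 9.48 and 11.4 RPKM (log2 change -1.40, SE 0.19, limma adjusted p = 0.00692).

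Among 13 genes of SREBP processing and turnover 1 rose and 1 fell (1 and 2 with median-ratio scaling), with a median of 0.02. As deposited, both counts are below the 22.2% and 10.2% of all genes. Erlin1, a membrane protein of the endoplasmic reticulum that binds the SREBP complex, rose by 1.34, and Fbxw7, which marks nuclear SREBPs for degradation, had a change of -0.98 (limma adjusted p = 0.00466 for Erlin1 and 0.0153 for Fbxw7). The protease genes Mbtps1 and Mbtps2, which cut SREBPs in the Golgi, had changes of 0.32 and 0.02 without a call. Of 10 further LXR genes tested, 1 rose and 3 fell (1 and 5 with median-ratio scaling), against 22.2% and 10.2% of all genes (15.3% and 17.4%), with a median of -0.42. Mylip, the LXR-induced ligase that degrades the LDL receptor, had 3.55 and 5.50 RPKM in 4OHT, against 18.1 and 15.8 RPKM in EtOH (log2 change -1.72, SE 0.20, limma adjusted p = 0.00594). The transporter genes Abca7 and Abcg4 had falls of -0.54 and -0.62, while Smpdl3a, a phosphodiesterase gene, rose by 0.93. Nr1h2, which encodes LXR beta, had 25.8 and 24.6 RPKM in 4OHT, against 34.1 and 31.7 RPKM in EtOH (limma adjusted p = 0.0852), and Nr1h3, which encodes LXR alpha, had at most 0.350 RPKM in any library.

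The authors' deposited table compares 4OHT with EtOH within each replicate number, 1 library against 1. At a corrected p-value under 0.05 it called 6 of the 31 genes higher in replicate 1 (Runx1 delta/delta), namely Acly, Dhcr7, Fdps, Lss, Scd1 and Scd2, against 2.72% of all rows, and 0 in replicate 2 (Runx1 delta/+), against 0.951% of all rows. In the authors' deposited table the fold of proportions was 3.89 and 1.94 for Dhcr7 and 3.82 and 1.88 for Scd1, in replicates 1 and 2. With 1 library on each side, those p-values speak of the libraries alone. All 23240 rows include genes averaging under 1 RPKM, whereas 30 of the 31 members reached that level, so the shares are not like for like.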

How the data were processed

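RNA-seq values were analysed for 4 mouse libraries, 2 given 4OHT and 2 given EtOH, each group with 1 Runx1 delta/delta (replicate 1) and 1 Runx1 delta/+ (replicate 2) library. Per the labels' protocols, total RNA of sorted cells was made into libraries with a TruSeq or a NEBNext kit; the kit of each library, the aligner and the counting rule, strand included, were not given in the sources used here. Per the submitters' processing notes, mm9 is the build. Per the file headers, the authors deposited RPKM for each library, and the results of Kal's Z-test for each replicate number: a signed fold of proportions (4OHT over EtOH), its p-value and its FDR.

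Library totals were recovered from RPKM steps of genes with 1 transcript, where 72 to 232 genes per library shared 1 total. Whole reads, within 0.02 reads, came out for all 31 members. Multiples of a fitting length also fitted, and the length nearest to an annotated transcript was taken. Reads are not independent molecules.

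The values being RPKM, limma 3.58.1 (R 4.3.3) was fitted to log2(RPKM + 1) for the 9595 genes averaging 1 RPKM or more, with treatment and genotype as terms, a trended prior, two-sided p-values adjusted by Benjamini-Hochberg and a threshold of 0.05. There is 1 residual degree of freedom, and the prior is worth 4.37 more. The pseudocount shrinks folds of low genes. Genotype equals replicate number; deviations of same-numbered libraries from the mean of their group correlated at 0.664 across genes, and the labels give the numbers no other meaning. Nothing says that libraries came from separate cultures or animals beyond genotype, so p-values measure only the spread between these 4 libraries. With 1 library per genotype and treatment, that spread is the disagreement of the genotypes in their response to 4OHT, moderated by the prior from other genes. It holds no spread between replicates of 1 condition. Alternatives were a pseudocount of 0.1, no filter, median-ratio scaling, no genotype term and leaving out each library.

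All 31 members are named. From 4 further lists, those called were named, up to 4 per list by smallest p, with Nr1h2, Nr1h3, Mbtps1 and Mbtps2. The members and lists were chosen with earlier results of these data known. The code was tested on simulated data. Promoters and symbols came from RefSeq, and overlapping exons from GENCODE M21, for names only.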

Additional observations from a re-analysis of the deposited data

Results flagged for a closer look

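In 4 members the 2 genotypes moved in opposite directions with 4OHT. Each genotype has 1 pair of libraries, and the difference was not tested. The log2 ratio in Runx1 delta/delta less that in delta/+ was 0.65 for Fdps (266 and 272 RPKM in the delta/delta and delta/+ 4OHT libraries, against 170 and 273 RPKM in EtOH) and 0.32 for Pmvk (104 and 76.6 RPKM, against 87.6 and 81.2 RPKM). It was -0.22 for Insig2 and -0.73 for Abcg1, whose ratio was 0.618 in delta/delta and 1.08 in delta/+. None of the 4 passed for 4OHT as deposited.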

How the results depend on the processing

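With no replicate block, that is without the genotype term, 0 members passed for 4OHT in limma (8 at an unadjusted p under 0.05), and 117 genes rose and 116 fell in all; adding median-ratio scaling to that, an alternative chosen after seeing the data, also gave 0 (3 at an unadjusted p under 0.05). Leaving out each library in turn left 1 library in a group and no genotype term, with that library assumed to vary like the others. The genotypes were then unbalanced between the groups, so the difference between genotypes entered the fitted change. In those fits the change ran from 0.77 to 1.90 for Dhcr7, from 0.90 to 1.73 for Scd1 and from 0.12 to 0.80 for Acat2. A pseudocount of 0.1 RPKM left 10 risers and no filter left 8, all among the 12. With median-ratio scaling 1 member fell, and the class medians were -0.045 for regulators and Stard4 and 0.60 for fatty acid enzymes, with and without the genotype term. Leave-one-out medians ran from 0.20 to 0.67 for sterol enzymes, 0.17 to 0.30 for regulators and 0.58 to 1.13 for fatty acid enzymes. Those of all genes tested ran from 0.14 to 0.21. The 5 members lower in Runx1 delta/delta became 8 with median-ratio scaling (adding Lss, Nsdhl and Scd2), 4 with the smaller pseudocount, and 0 in limma with no filter (12 at an unadjusted p under 0.05) or without the treatment term (1). Leaving out a library, which also drops the treatment term, gave 0 (1 to 10). No member called as deposited changed direction under the alternatives run. Idi1, called lower with median-ratio scaling alone, was positive without 4OHT replicate 1 (0.13) and without EtOH replicate 2 (0.18), fits in which the genotypes are unbalanced. Within each genotype its log2 ratio was negative, -0.36 in delta/delta and -0.45 in delta/+. Why calls were lost without a term was not tested. Abca1 rests on 42 to 234 reads per library and Tm7sf2 on 129 to 537, which limits their precision.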

Other observations

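Ratios between members within a library do not depend on scaling between libraries. Per gene length, Dhcr7 stood at 0.601 and 0.337 of Idi1 in the delta/delta and delta/+ 4OHT libraries, against 0.128 and 0.131 in EtOH, so the EtOH libraries of both genotypes were alike and the 4OHT libraries apart. Lss stood at 0.555 and 0.359 of Idi1 in 4OHT, against 0.161 and 0.147 in EtOH. The gene pairs were chosen after their values were seen, and a ratio shows unequal change without saying which gene changed.

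Scd1 stood at 0.401 and 0.292 of Scd2 in 4OHT, against 0.240 and 0.186 in EtOH. Insig1 was 10.1 and 7.84 times Insig2 in 4OHT, against 5.93 and 5.28 times in EtOH. Fasn was 2.67 and 2.82 times Acaca in 4OHT, against 2.35 and 2.28 times in EtOH, a smaller shift between neighbouring steps. Srebf1 was 0.593 and 0.678 of Srebf2 in 4OHT, against 0.451 and 0.618 in EtOH.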
